A study of Homo sapiens with 6 samples.

Results

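Serglycin and 9 leukocyte granule proteins were followed in K562 cells with a truncated RUNX1. The 10 genes, SRGN, PRF1, LYZ, MPO, ELANE, CTSG, PRTN3, AZU1, PRG2 and EPX, were taken by name from the deposited RPKM table (reads scaled by gene length and library depth) of 60131 genes, and by Entrez gene number from the table of normalized read counts of 28395 genes. All 10 were found in both tables. Total RNA was sequenced in 3 libraries of the genotype R320*, in which a nonsense change shortens RUNX1, and in 3 libraries of the wild-type genotype (WT). Both were K562, a human cell line from chronic myeloid leukaemia that expresses erythroid and megakaryocytic genes, grown in RPMI-1640 with serum, and no treatment is named. The labels give neither the number of altered alleles nor the clones or cultures behind the libraries, so each p-value reflects the variation among these libraries alone, and that may be technical.

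Serglycin is the proteoglycan of blood cell granules: a small core protein that carries many sulphated glycosaminoglycan chains on a run of serine and glycine repeats. Its negative charge helps to pack basic proteins such as granzymes, perforin, elastase and other proteases into secretory granules. Perforin is stored by cytotoxic lymphocytes, whereas myeloperoxidase (MPO), the azurophil serine proteases and lysozyme mark neutrophils and monocytes, and major basic protein (PRG2) and eosinophil peroxidase (EPX) mark eosinophils. RUNX1 is known as a regulator of several granule genes of myeloid cells.

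The stretch of SRGN that carries the attachment sites is shown because it defines the molecule. It lies in the last of the 3 exons of the annotated coding transcript on chromosome 10 (GRCh38, forward strand). Capitals mark a serine codon followed by a glycine codon, of which there are 8 over 54 bases, 6 of them without a break. The stretch covers codons 94 to 111 of 159, the stop codon included, and the coding sequence holds no other such pair.
SRGN (chr10:69103923-69103976): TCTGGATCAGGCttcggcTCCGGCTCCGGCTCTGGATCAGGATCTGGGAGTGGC

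The promoters of 4 of the 10 members were in the RefSeq table (GRCh38.p14), each from 250 bases before to 50 bases after the start of the gene. PRF1 is shown as the member of these 4 that fell in both tables, and PRTN3 and AZU1 as 2 adjoining members with values in the RPKM table alone. Both strands were searched for the RUNX letters TGTGGT and TGCGGT and for the ETS letters AGGAAG, and matches are in capitals. PRF1 held the RUNX letters once, as ACCACA at position -62 from the start, and the ETS letters at -42 and, as CTTCCT, at -148. PRTN3 held the ETS letters at -87 and AZU1 held neither, while the CTSG promoter, not printed, held 4 ETS matches, 2 of them overlapping, and no RUNX match. No RUNX match overlapped an ETS match. Among 35116 promoters of the same length, 19.6% held either RUNX form, 13.1% TGTGGT, 7.29% TGCGGT and 33.6% AGGAAG.
PRF1 (chr10:70602692-70602991): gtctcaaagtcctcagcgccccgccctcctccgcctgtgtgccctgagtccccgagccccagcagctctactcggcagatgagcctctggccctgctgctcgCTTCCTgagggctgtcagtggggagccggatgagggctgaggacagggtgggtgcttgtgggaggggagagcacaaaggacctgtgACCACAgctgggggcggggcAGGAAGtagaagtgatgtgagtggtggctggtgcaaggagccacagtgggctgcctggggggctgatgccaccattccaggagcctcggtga
PRTN3 (chr19:840749-841048): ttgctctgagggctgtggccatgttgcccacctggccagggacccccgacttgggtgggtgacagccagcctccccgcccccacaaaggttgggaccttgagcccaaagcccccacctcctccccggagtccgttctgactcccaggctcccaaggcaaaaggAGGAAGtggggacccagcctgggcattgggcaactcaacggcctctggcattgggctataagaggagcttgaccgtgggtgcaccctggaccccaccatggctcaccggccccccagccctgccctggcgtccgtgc
AZU1 (chr19:827587-827886): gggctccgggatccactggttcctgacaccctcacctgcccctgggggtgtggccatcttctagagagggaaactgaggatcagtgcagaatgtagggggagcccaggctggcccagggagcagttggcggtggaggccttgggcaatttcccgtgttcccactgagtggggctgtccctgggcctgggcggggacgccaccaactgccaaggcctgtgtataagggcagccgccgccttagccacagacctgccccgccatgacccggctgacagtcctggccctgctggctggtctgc

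SRGN, PRF1 and LYZ had far fewer reads in R320* cells, PRG2 did not pass the test, and the azurophil proteins had next to no reads in the table of normalized counts in either genotype. Reads assigned to genes came to 30064538 to 31306435 in R320* libraries and 29058471 to 30595857 in WT libraries, and 1 read was worth 0.953 to 1.05 normalized counts. A gene was tested if 3 or more libraries had 10 normalized counts or more. Tests were run with limma on log2(normalized count + 1), with p adjusted over all 14299 such genes by the Benjamini-Hochberg method, and a gene was called below 0.05. Log2 fold changes are R320* minus WT. Of the 14299 genes, 53.7% were called in either direction, 27.4% lower and 26.4% higher in R320*, and the libraries of the genotypes did not overlap for 59.8%. Of the 10 members 5 were tested and 4 were called, all lower. SRGN and LYZ entered the test through their WT libraries alone, and EPX through its WT libraries and 1 R320* library, so these counts carry no weight of their own. PRF1 and PRG2 reached the minimum in all 6 libraries.

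SRGN had 5.88, 7.94 and 1.91 normalized counts in R320* libraries, against 752, 809.6 and 869.6 in WT libraries. The R320* libraries together held 16 reads of the gene, and the WT libraries held 2391. The mean was 5.24 ± 3.07 in R320* and 810.4 ± 58.8 in WT (SD, n = 3 each), a 155-fold difference. On the log2 scale this was -7.17 (SE 0.33, limma adjusted p = 2.19e-11), the 7th lowest among the 3914 genes called lower. Of all genes tested, 2.78% were called and at least 4-fold lower. In these bulk libraries fewer cells that express a gene and less RNA per cell cannot be told apart. SRGN (Entrez 5552) spans 69087603 to 69104811 on chromosome 10 (GRCh38.p14, forward strand), where the annotation places a small noncoding RNA, RF00017, inside the gene. The pseudogene SRGNP1 was listed at 0 RPKM in all 6 libraries.

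The RPKM table gave SRGN the same direction on a scale per length. It was at 0.234, 0.330 and 0.0850 RPKM in R320* libraries and at 30.7, 33.8 and 35.5 RPKM in WT libraries, a 154-fold difference between the means. Genes with at least 0.5 RPKM in at least 3 libraries were tested on log2(RPKM + 0.1), a scale that understates changes of low genes. Of the 17769 tested, 31.9% were called, 16.8% lower and 15.1% higher, and for 47.0% the libraries of the genotypes did not overlap. With each RPKM column rescaled to the same sum the called genes were split 3402 higher and 2396 lower, against 2692 and 2983 as deposited. The log2 fold change of SRGN in RPKM was -6.81 (limma adjusted p = 2.25e-05), and it was -6.87 after the rescaling. SRGN reached the minimum of 0.5 RPKM in its WT libraries alone. Its entry to this test was thus tied to its WT level.

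PRF1, which encodes the pore-forming protein of cytotoxic granules, had 36.3, 22.8 and 45.7 normalized counts in R320* libraries, against 288, 313 and 339.8 in WT libraries. Every R320* library was far below every WT library. Means were 34.9 ± 11.5 in R320* and 313 ± 26.1 in WT (SD, n = 3 each), and R320* was 8.97-fold lower. This was a log2 fold change of -3.18 (SE 0.23) with a limma adjusted p = 6.48e-09. In RPKM the values were 0.436, 0.272 and 0.539 in R320* and 3.50, 3.69 and 4.04 in WT (log2 fold change -2.93, limma adjusted p = 0.000343). PRF1 reached the RPKM minimum of 0.5 in its WT libraries and R320* replicate 3 alone. Its entry to that test was thus tied to its WT level. PRF1 (Entrez 5551) lies on the reverse strand of chromosome 10, from 70597348 to 70602741, with 1492.537 kb between it and SRGN.

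LYZ, which encodes lysozyme, the bacterial cell wall-cleaving enzyme of granules, differed between the tables. It had 0.980, 0 and 0 normalized counts in R320* libraries, against 39.7, 54.8 and 49.5 in WT libraries. These were 1 read in R320* and 142 reads in WT, a ratio of 0.00675 with a 95% exact Clopper-Pearson interval of 0.000170 to 0.0382 that covers counting error only. The fitted log2 fold change reached -5.28 (SE 0.59, limma adjusted p = 1.14e-06), a value that depends on the added count of 1. In RPKM, LYZ was at 3.78, 4.81 and 5.24 in R320* libraries and at 6.41, 6.93 and 5.62 in WT libraries, with a log2 fold change of -0.46 that was not called (limma adjusted p = 0.0616). The R320* libraries were below the WT libraries here too, by a margin that is small beside that in the counts.

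The gap between the tables for LYZ was unusual, although the direction was the same. Among 11918 genes tested in both tables and matched by symbol, the median absolute difference between the 2 log2 fold changes was 0.08. That of LYZ was 4.82, and it was the only gene with a difference of that size. Of 270 genes called and at least 4-fold lower in the counts, 253 were also called lower in RPKM. LYZ (Entrez 4069) spans 69348381 to 69354234 on chromosome 12, and the antisense gene AC020656.1 overlaps it. AC020656.1 was at 0.568, 0 and 0 RPKM in R320* libraries and at 0, 0.788 and 0.200 RPKM in WT libraries. The sources used here do not say whether reads were counted by strand or which tool made which table, and the part of either in the difference was not tested.

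**Figure D1:**
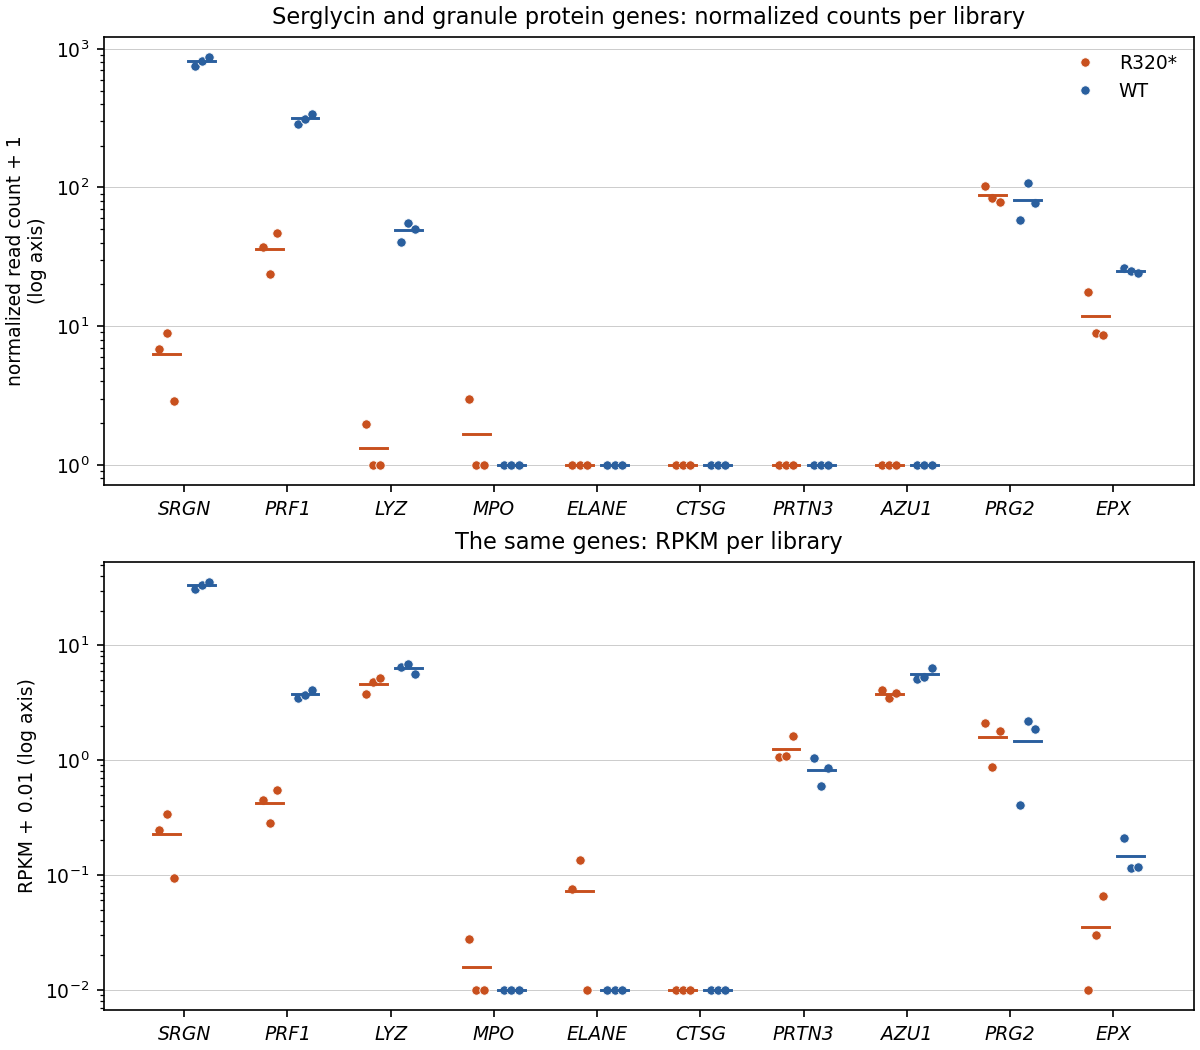
Normalized read counts plus 1 (upper panel) and RPKM plus 0.01 (lower panel) of the 10 members on log axes, with 1 point per library, R320* to the left of WT and a bar at the mean of 3 libraries. SRGN and PRF1 were lower in every R320* library in both panels, LYZ was far lower in the counts alone, and AZU1 and PRTN3 had values in RPKM without a read in the counts.

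The azurophil granule proteins of neutrophils were at or near 0 in the normalized counts. ELANE (neutrophil elastase), CTSG (cathepsin G), PRTN3 (proteinase 3) and AZU1 (azurocidin, an inactive relative of these proteases) had no read in any of the 6 libraries. A count of 0 allows up to 3 reads, or 2.86 to 3.14 normalized counts in a library, for counting error only. MPO, the peroxidase that makes hypochlorous acid, had 2 reads in R320* replicate 1 and none in the other libraries. In the normalized counts a difference between the genotypes was not detectable for these 5 genes.

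In the RPKM table AZU1 and PRTN3 had values well above 0. AZU1 was at 4.08, 3.44 and 3.85 RPKM in R320* libraries, against 5.10, 5.26 and 6.36 RPKM in WT libraries. The R320* libraries were all lower, and the log2 fold change of -0.54 (SE 0.13) was called (limma adjusted p = 0.0205). That call was lost without R320* replicate 2, R320* replicate 3 or WT replicate 3, when the limma adjusted p was 0.0634, 0.0516 and 0.0619, in a range of 0.0195 to 0.0634 over the alternatives. PRTN3 was at 1.06, 1.08 and 1.60 RPKM in R320* libraries and at 1.02, 0.585 and 0.840 RPKM in WT libraries, and the difference was not called (log2 fold change 0.56, limma adjusted p = 0.211). ELANE was at 0.0653, 0.124 and 0 RPKM in R320* libraries, MPO at 0.0177, 0 and 0, and both were listed at 0 in all WT libraries, while CTSG was listed at 0 in all 6. None of these 3 was tested in RPKM. Of 6724 genes without a read in the counts, 321 (4.77%) reached the minimum for the RPKM test, and AZU1 and PRTN3 were among them.

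The eosinophil proteins gave a weak and a null result. PRG2, major basic protein, had 102, 82.4 and 77.2 normalized counts in R320* libraries and 57.5, 107 and 75.8 in WT libraries, which overlapped (log2 fold change 0.16, SE 0.24, limma adjusted p = 0.614). In RPKM it was at 2.10, 0.869 and 1.77 in R320* libraries and at 0.394, 2.17 and 1.84 in WT libraries, again with overlap (log2 fold change 0.29, limma adjusted p = 0.770). The protein-coding gene AP000781.2 overlaps PRG2 and was at 2.01, 2.94 and 1.15 RPKM in R320* libraries and at 2.62, 1.08 and 0.156 RPKM in WT libraries, so how reads divide between them is uncertain. EPX had 16.7, 7.94 and 7.62 normalized counts in R320* libraries, against 25.1, 23.9 and 23.3 in WT libraries. Means were 10.7 ± 5.13 in R320* and 24.1 ± 0.934 in WT (SD, n = 3 each), and the gene was called lower (log2 fold change -1.18, SE 0.44, limma adjusted p = 0.0322). This rested on 33 reads in R320* and 71 in WT, and the call was lost in 8 of 16 alternatives, 5 of which leave out a single library, in a range of adjusted p from 0.0140 to 0.0884. EPX in RPKM was at 0, 0.0202 and 0.0558 in R320* libraries and at 0.200, 0.105 and 0.107 in WT libraries, below the minimum for a test, and an antisense gene, AC005962.1, overlaps it.

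Levels could be set in order on the RPKM scale, which is per length. In R320* cells LYZ (mean 4.61) and AZU1 (3.79) came first with overlapping libraries, followed by PRG2 (1.58) and PRTN3 (1.25), which also overlapped, and then by PRF1 (0.416) and SRGN (0.216), whose libraries overlapped as well. ELANE, EPX and MPO were at a mean of 0.0631, 0.0253 and 0.00591, and CTSG was listed at 0. In WT cells SRGN led at a mean of 33.3, above every library of any other member. LYZ (6.32) and AZU1 (5.57) overlapped in the next places, PRF1 (3.74) stood alone, PRG2 (1.47) and PRTN3 (0.816) overlapped, and EPX followed at 0.137. The order in R320* depends on the table, since LYZ, AZU1 and PRTN3, all above SRGN in RPKM, had 1, 0 and 0 reads there in the normalized counts, where SRGN had 16.

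Markers of other blood cells were checked beside these results. The 12 markers of erythroid and megakaryocytic K562 cells were all present, with a summed 158417 to 183534 normalized counts in R320* libraries and 134559 to 139731 in WT libraries. HBG2 and TFRC were the largest parts of these sums. Of the 12 markers 8 were called higher, against 26.4% over all genes tested, and 3 lower, against 27.4%. Those lower were ITGA2B, GATA1 and HBE1 (log2 fold change -1.66, -0.55 and -0.47). The 10 markers of T and NK cells summed to 658 to 746 in R320* and 936 to 1015 in WT, where CD3D made up most (467 ± 47.7 in R320* and 728 ± 4.32 in WT, n = 3 each), while CD2, CD8A, KLRD1 and NCR1 had no read. In RPKM, CD2 and CD8A were listed at 0 in all 6 libraries, but KLRD1 was at 1.39 to 1.98 in R320* libraries and at 0.944 to 1.52 in WT libraries. NCR1 was at 0.870 to 1.26 RPKM in R320* libraries and at 1.13 to 2.42 RPKM in WT libraries. Neither was called in RPKM (limma adjusted p = 0.363 for KLRD1 and 0.105 for NCR1), and both overlapped between genotypes. Neutrophil and monocyte markers summed to 1088 to 1146 in R320* and 1471 to 1552 in WT, mostly from CD33 and CD68, and S100A8, S100A9, S100A12 and FCN1 had no read. Eosinophil markers summed to 32.7 or more in R320* and 35.6 to 58.7 in WT, with overlapping libraries, mostly from SIGLEC8, with CLC and CCR3 at 0. Mast cell and basophil markers summed to 78.4 to 99.2 in R320* and 20.2 to 28.2 in WT, mostly from FCER1A (85.1 ± 9.01 in R320* and 16.6 ± 3.14 in WT), with TPSAB1, TPSB2 and CPA3 at 0. The 4 B cell markers summed to 101 to 132 in R320* and 87.9 to 111 in WT. The T and NK cell sum and the neutrophil and monocyte sum were lower in R320*, as PRF1 and LYZ were, but through few genes. Of 3 tested T and NK markers 1, CD3D, was called lower, against 27.4% over all genes tested. Of 4 tested neutrophil and monocyte markers 2, CD33 and CD68, were called lower. CD3G, NKG7, CSF3R and FCGR3B were not called (log2 fold change -0.06, 0.25, 0.33 and 0.88). The part of these markers in the PRF1 and LYZ results was not tested.

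Other cytotoxic granule genes went both ways, with GZMM and LAMP1 higher and CD63 lower in R320*. The list held 12 genes, SRGN and PRF1 included, of which 6 were tested. Of these 2 rose, against 26.4% over all genes tested, and 3 fell, against 27.4%. SRGN and PRF1 were 2 of the 3 that fell, and SRGN entered the test through its WT libraries alone. The median log2 fold change was -0.42, against 0.01 over all genes tested. GZMM, granzyme M, rose with 98.0, 139.9 and 127 normalized counts in R320* libraries, against 46.0, 44.9 and 40.4 in WT libraries (log2 fold change 1.44, SE 0.22, limma adjusted p = 4.4e-05). It also rose in RPKM, with a mean of 3.97 ± 0.463 in R320* and 1.58 ± 0.0965 in WT (SD, n = 3 each, limma adjusted p = 0.00115). LAMP1, a lysosome and granule membrane protein, rose to 4179 ± 114 in R320*, against 2565 ± 62.1 in WT. CD63, a tetraspanin of granule membranes, fell to 4134 ± 341 in R320*, against 8854 ± 34.4 in WT. GZMA, GZMH and GZMK had no read, and GZMB had 4 reads, all in R320* replicate 2. GNLY, granulysin, had no read in R320* libraries and 5, 4 and 3 reads in WT libraries, too few to be tested. Of the remaining tested genes NKG7 was not called (25.3 ± 5.80 in R320* and 21.4 ± 7.04 in WT).

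Among 24 other neutrophil granule genes 7 were tested, 2 rose and 2 fell, with a median log2 fold change of 0.12. The share called, 57.1%, was near the 53.7% of all genes tested. PRSS57, neutrophil serine protease 4, had 15.7, 9.92 and 9.53 normalized counts in R320* libraries, against 191, 176 and 269 in WT libraries, with no overlap (log2 fold change -4.08, SE 0.28, limma adjusted p = 4.04e-09). PRSS57 fell in RPKM as well (0.306 ± 0.125 in R320* and 6.30 ± 1.23 in WT, SD, n = 3 each, limma adjusted p = 0.000135). It reached the minimum of 10 normalized counts in its WT libraries and R320* replicate 1 alone. In RPKM its R320* mean was below the minimum of 0.5. Entry of PRSS57 to both tests was thus tied to its WT level. CYBB, the catalytic subunit of the phagocyte oxidase, fell to 118 ± 26.1 in R320*, against 191 ± 29.6 in WT (log2 fold change -0.71), but was not called in RPKM (limma adjusted p = 0.159). MMP9, gelatinase B, rose to 32.6 ± 12.4 in R320*, against 12.1 ± 6.85 in WT, a call that was lost without R320* replicate 2 or WT replicate 3 (adjusted p from 0.00485 to 0.0890 over the scalings and left-out libraries). CYBA, the partner subunit of CYBB, was called higher by 0.12 on the log2 scale, and that call was lost under 5 of 9 such settings (adjusted p from 0.00886 to 0.199). Of the 24 genes 10 had no read, among them the defensins and BPI. None of the 11 eosinophil, basophil and mast cell granule genes reached the minimum for the test, and 5 of them had no read.

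Of 15 granule protease activators and inhibitors 9 were tested, 2 rose and 4 fell, with a median log2 fold change of 0.02. The 6 called were 66.7% of those tested, against 53.7% of all genes. The lysosomal proteases CTSH and CTSL rose, CTSH to 6922 ± 304 in R320*, against 3818 ± 109.8 in WT, and CTSL to 2236 ± 7.49 in R320*, against 1371 ± 18.7 in WT. SERPINB1, an inhibitor of elastase, cathepsin G and proteinase 3, fell to 2505 ± 91.8 in R320*, against 4531 ± 128 in WT (log2 fold change -0.86, SE 0.04, limma adjusted p = 8.65e-11). SERPINB6, an inhibitor of cathepsin G, and SERPINB9, an inhibitor of granzyme B, fell by 0.34 and 0.29 on the log2 scale. SERPING1 was the other gene called lower (log2 fold change -1.04, limma adjusted p = 0.0429), a call that was lost under 6 of 9 scalings and left-out libraries (adjusted p from 0.0179 to 0.123). CTSC, the protease that activates granule serine proteases, was at 9450.3 ± 299.7 in R320* and 9131 ± 118 in WT, overlapping and not called (limma adjusted p = 0.261).

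Of 32 genes that build and sulphate glycosaminoglycan chains 25 were tested, 7 rose and 7 fell, with a median log2 fold change of 0.06. The share called, 56.0%, was near the 53.7% of all genes tested, so the counts set the list apart in neither direction. PAPSS1, which makes the sulphate donor PAPS, had 286, 304 and 288 normalized counts in R320* libraries, against 1927, 1956 and 1908 in WT libraries (log2 fold change -2.72, SE 0.07, limma adjusted p = 2.07e-14). It fell in RPKM too, to 4.61 ± 0.377 in R320*, against 30.1 ± 0.642 in WT (log2 fold change -2.69). CHST3, a chondroitin 6-sulphotransferase, rose with 809, 654 and 645 in R320* libraries, against 97.3, 131 and 117 in WT libraries (log2 fold change 2.60, SE 0.14, limma adjusted p = 1.11e-10). CHST11, a chondroitin 4-sulphotransferase, fell to 2492 ± 75.3 in R320*, against 4113 ± 115 in WT, and CHSY1, a chondroitin synthase, to 563 ± 29.4 in R320*, against 1111 ± 50.5 in WT. NDST1, a heparan sulphate N-deacetylase and N-sulphotransferase, rose to 3014 ± 185 in R320*, against 1981 ± 67.7 in WT. All 5 were called in the same direction in RPKM.

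Granule transport and release genes fell more often than they rose. All 29 were tested, 16 fell, against 27.4% over all genes, and 3 rose, against 26.4%, with a median log2 fold change of -0.20. In RPKM 11 of 27 fell and 1 rose, against 16.8% and 15.1% over all genes. RAB27B, a GTPase that docks granules at the membrane, had 84.3, 68.5 and 82.0 normalized counts in R320* libraries, against 749, 728 and 736 in WT libraries (log2 fold change -3.23, SE 0.13, limma adjusted p = 3.31e-12). LYST, whose loss causes the giant granules of Chediak-Higashi syndrome, fell to 278 ± 10.4 in R320*, against 1105 ± 54.7 in WT (log2 fold change -1.99 in counts and -1.08 in RPKM). VAMP8, a SNARE of granule fusion, fell to 520.4 ± 9.55 in R320*, against 1391 ± 73.7 in WT. GNPTAB, which starts the mannose 6-phosphate tag of lysosomal enzymes, and SORT1, a sorting receptor, fell by 0.59 and 0.49 on the log2 scale.

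STX11, a SNARE needed by cytotoxic cells and chosen here after its values were seen, had no read in R320* libraries and 63.8, 55.8 and 34.4 normalized counts in WT libraries. Against a floor of 3 reads per library it was at least 17.5-fold lower in R320*. STX11 entered the test through its WT libraries alone. The 3 genes that rose, also chosen after their values were seen, were RAB27A (3433 ± 58.5 in R320* and 2777 ± 42.2 in WT), SYT7 and AP3D1. RAB27A and RAB27B, close relatives, thus moved in opposite directions, by 0.31 and -3.23 on the log2 scale.

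Among 20 cell-surface and matrix proteoglycans other than SRGN, 13 were tested, 9 rose, against 26.4% over all genes, and 2 fell, against 27.4%, with a median log2 fold change of 0.59. In RPKM 7 of 9 rose and 1 fell, against 15.1% and 16.8% over all genes. HSPG2 (perlecan) rose to 14245 ± 204 in R320*, against 6233 ± 295 in WT, and AGRN (agrin) to 11549 ± 419 in R320*, against 7678 ± 196 in WT. SDC2 (syndecan 2) rose to 412 ± 12.5 in R320*, against 83.4 ± 36.0 in WT, and APLP2 to 15046 ± 115 in R320*, against 9772 ± 292 in WT. CD44, which binds hyaluronan and serglycin, was 1 of the 2 that fell, with 51.0, 28.8 and 58.1 normalized counts in R320* libraries, against 385, 407 and 432 in WT libraries (log2 fold change -3.18, SE 0.22, limma adjusted p = 3.62e-09). BCAN (brevican), named after its values were seen, was the other, with a log2 fold change of -0.20.

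Of 10 platelet granule genes 2 were tested and both fell, against 27.4% called lower over all genes tested. THBS1, thrombospondin 1, had 6.86, 15.9 and 6.67 normalized counts in R320* libraries, against 538, 478 and 455 in WT libraries (log2 fold change -5.61, limma adjusted p = 8.1e-11), with a smaller change in RPKM (log2 fold change -3.62, limma adjusted p = 0.0129). THBS1 reached the minimum of 10 normalized counts in its WT libraries and R320* replicate 2 alone. Its entry to the test was thus tied to its WT level. TGFB1 fell to 8626 ± 219 in R320*, against 11459.7 ± 379.6 in WT. PF4, a chemokine stored with serglycin in platelets, had no read. CCL5 had no read in the counts and 9.61, 8.75 and 8.38 RPKM in R320* libraries and 10.2, 6.83 and 8.12 RPKM in WT libraries, which overlapped.

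Of 17 transcription factors known to regulate granule genes 13 were tested, 4 rose and 4 fell, around a median log2 fold change of 0.04. The share called, 61.5%, stood beside 53.7% of all genes tested. RUNX1 itself rose to 5165 ± 124 in R320*, against 2933 ± 31.6 in WT (log2 fold change 0.82), a total over all alleles and isoforms that does not check the genotype labels. CEBPB and GATA1 fell, CEBPB to 707 ± 37.1 in R320*, against 980.1 ± 73.5 in WT, and GATA1 to 6124 ± 207 in R320*, against 8964 ± 175 in WT. GATA2 and GFI1 rose, by 0.19 and 0.89 on the log2 scale, and in RPKM neither was called (limma adjusted p = 0.0664 and 0.419). CEBPE, a factor of late neutrophil granules, and TBX21 and EOMES, factors of perforin expression in lymphocytes, had no read.

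**Figure D2:**
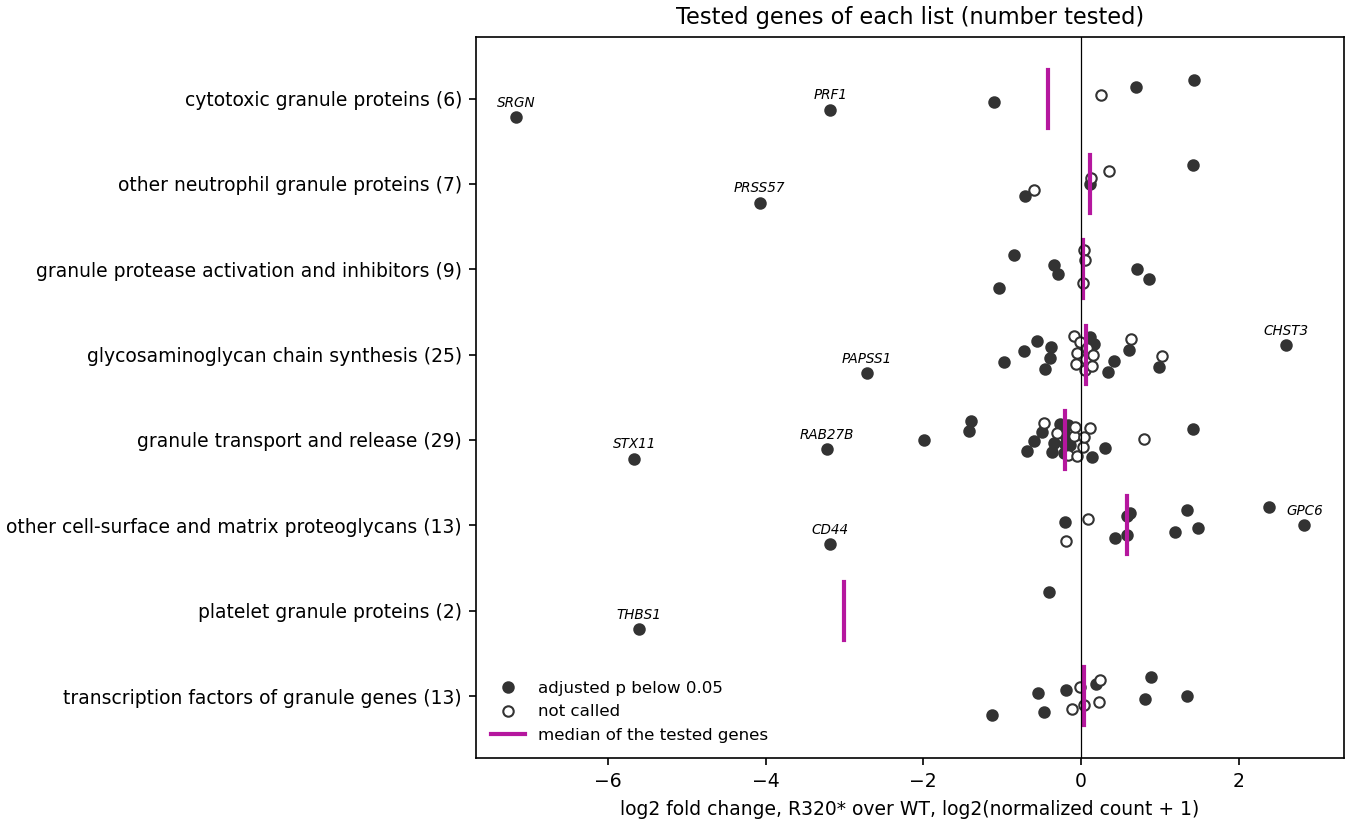
Log2 fold change, R320* over WT on the log2(normalized count + 1) scale, of 104 tested genes in 8 lists, with filled points for an adjusted p below 0.05, open points for genes not called and a bar at the median. Transport and release genes lay mostly left of 0, other proteoglycans mostly right of 0, and the glycosaminoglycan list had PAPSS1 (-2.72) and CHST3 (2.60) at its ends.

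Of 96 list genes tested in both tables, 79 had fold changes of the same sign in both, which says nothing of their size. SRGN and PRF1 differed by under 0.5 on the log2 scale between the tables, and LYZ and THBS1 had the larger fall in the counts. Spans of CD63, CD44, HSPG2, APLP2, SDC2, THBS1, TGFB1, LYST, RAB27A, RAB27B, GNPTAB, NDST1, PRSS57, CYBB, MMP9, SERPINB1, SERPINB9, CEBPB, GATA2 and RUNX1 overlap other annotated genes, so how reads divide there is uncertain. The same holds for AP3D1, AGRN, BCAN, CCL5, CHST11, NKG7, SYT7 and VAMP8.

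**Figure D3:**
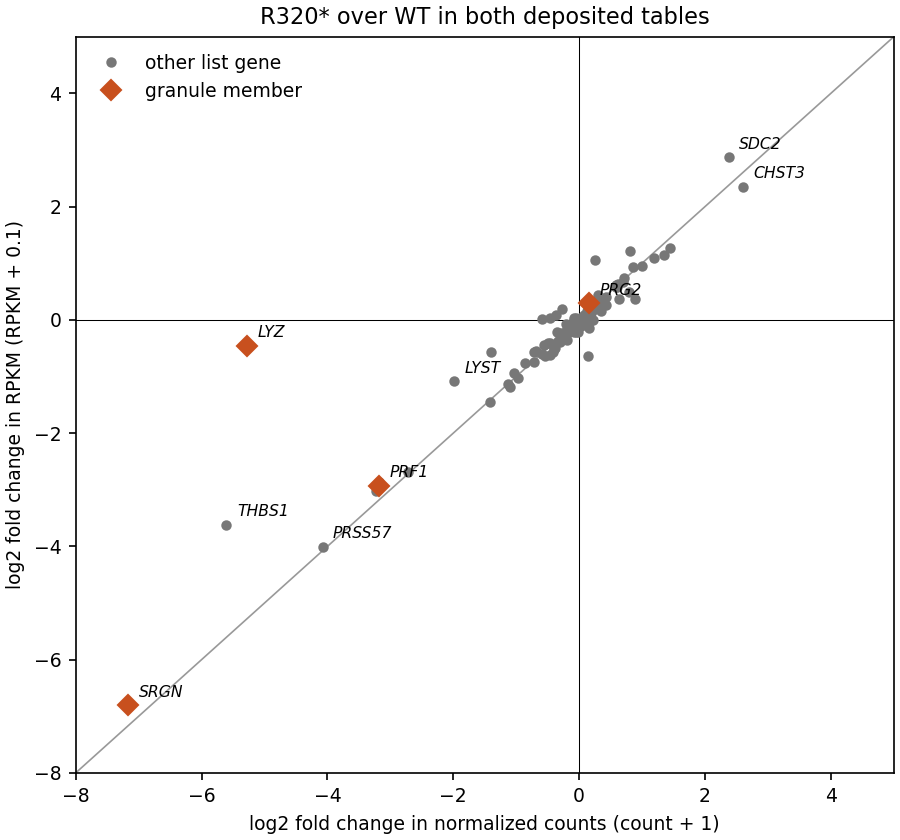
Log2 fold changes, R320* over WT, of 96 list genes in normalized counts (x axis, count + 1) and in RPKM (y axis, RPKM + 0.1), with the 4 members tested in both as diamonds and a line of equal values. LYZ lay far above the line, at -5.28 in counts and -0.46 in RPKM, while SRGN and PRF1 lay close to it.

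Most genes tested around SRGN and PRF1 were not called lower, which is also true of genes at large. Over all genes tested 27.4% were called lower and 26.4% higher. Within 1 Mb on each side of SRGN 17 other genes were tested. Of these 7 rose and 1 fell, and log2 fold changes ran from -1.23 to 0.62 around a median of 0.11. VPS26A, the next protein-coding gene to the right, was at 2177 ± 149.9 in R320* and 2146 ± 17.6 in WT and was not called (limma adjusted p = 0.793), nor was KIFBP, the next to the left (limma adjusted p = 0.696). SUPV3L1, a mitochondrial RNA helicase further to the right, rose to 2096 ± 23.0 in R320*, against 1475 ± 54.8 in WT. Around PRF1 14 genes were tested, of which 4 rose and 2 fell, and log2 fold changes ran from -2.32 to 4.37 around a median of 0.15. PALD1, which adjoins PRF1 on its left, moved the opposite way, with 194, 206 and 269.7 normalized counts in R320* libraries, against 16.7, 8.97 and 6.07 in WT libraries (log2 fold change 4.37, limma adjusted p = 9.14e-09). ADAMTS14, on the right, was not called (limma adjusted p = 0.255).

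LYZ lies in a stretch whose genes were lower as a whole. Of 13 other genes tested within 1 Mb, 10 fell, against 27.4% over all genes tested, and 0 rose, against 26.4%. Their log2 fold changes ran from -1.88 to -0.18 around a median of -0.49. The 5 tested adjoining genes, MDM2, CPSF6, YEATS4, FRS2 and CCT2, fell by 0.49, 0.41, 0.54, 0.73 and 0.26 on the log2 scale. The log2 fold change of LYZ in RPKM, -0.46, was within that range, and its value in the counts, -5.28, was below it. The part of the stretch in the LYZ result was not tested.

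On chromosome 19, AZU1, PRTN3 and ELANE follow each other with gaps of 8.981 kb and 4.128 kb, and CFD, the complement protease adipsin, lies 3.421 kb beyond ELANE. CFD was at 35.3, 32.7 and 71.5 normalized counts in R320* libraries and at 35.6, 210.4 and 38.4 in WT libraries, where WT replicate 2 stood apart, and it was not called (limma adjusted p = 0.347). PLPPR3, 4040 bases before AZU1, fell to 1219 ± 81.0 in R320*, against 2252 ± 93.0 in WT (log2 fold change -0.89, limma adjusted p = 2.11e-09). Before it, PTBP1 rose by 0.11 on the log2 scale. Beyond CFD, MED16 was not called and R3HDM4 fell by 0.34. Of 61 tested genes within 1 Mb of ELANE 33 rose, against 26.4% over all genes tested, and 8 fell, against 27.4%. Their median log2 fold change was 0.24. PRSS57, 132.385 kb before AZU1, had the lowest log2 fold change of that window, and GZMM, a further 135.624 kb away, was among the higher ones. EPX and MPO lie 64.681 kb apart on chromosome 17, and MKS1, which adjoins EPX, fell to 1176 ± 51.5 in R320*, against 1455 ± 65.7 in WT. CTSG lies 30.230 kb from GZMH on chromosome 14, PRG2 lies 5.630 kb from PRG3 on chromosome 11, and neither GZMH nor PRG3 had more than 1 read in all.

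**Figure D4:**
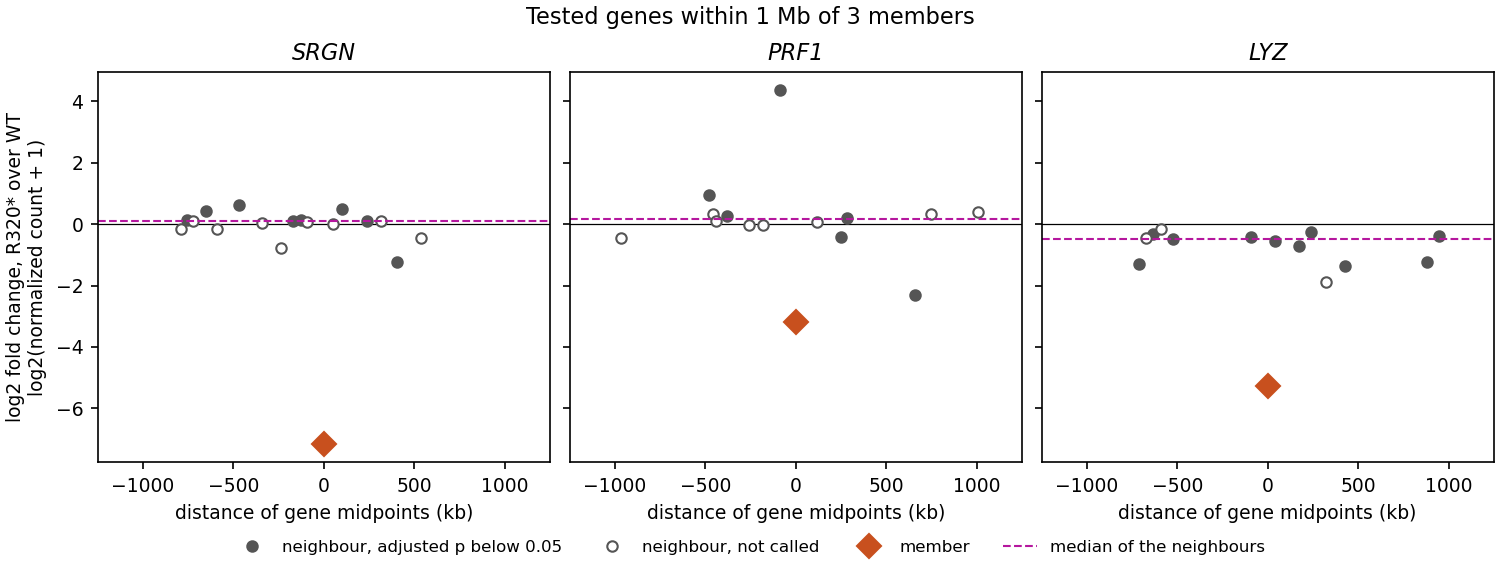
Log2 fold change, R320* over WT on the log2(normalized count + 1) scale, of tested genes within 1 Mb of SRGN, PRF1 and LYZ against the distance between gene midpoints in kb, with the member as a diamond at 0 and a dashed line at the neighbours' median. The median was 0.11 around SRGN and 0.15 around PRF1, with PALD1 at 4.37. Around LYZ it was -0.49, with 10 of 13 neighbours called lower, against 27.4% of all genes tested.

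The 5 protein-coding genes whose pattern over the 6 libraries was most like that of SRGN were ZNF626, TREML2, RFPL4B, OSBPL10 and KYNU. Likeness was the Euclidean distance between log2(normalized count + 1) values relative to the WT mean, among 11198 genes whose mean reached 50 normalized counts in either genotype, and the 5 distances ran from 1.26 to 1.95. ZNF626 had no read in R320* libraries and 175, 139.6 and 153 normalized counts in WT libraries, and RFPL4B had none in R320* and 232, 215 and 192 in WT. In the counts they were at least 53.2-fold and 72.9-fold lower against a floor of 3 reads per library. In RPKM ZNF626 was at 0.0551, 0.255 and 0.0138 in R320* libraries and 3.86, 3.04 and 3.95 in WT libraries, 33.5-fold lower. RFPL4B was listed at 0 RPKM in all R320* libraries. TREML2, a receptor of the TREM family, was at 0, 3.97 and 0 in R320* libraries and at 203, 222 and 248 in WT libraries. KYNU, kynureninase, was at 0, 5.95 and 0 in R320* libraries and at 429.9, 372 and 366 in WT libraries. By means TREML2 was 170-fold lower in the counts and 173-fold lower in RPKM, and KYNU 196-fold and 19.6-fold. OSBPL10, an oxysterol-binding protein relative, was at 3.92, 3.97 and 0 in R320* libraries and at 191, 231 and 201 in WT libraries, with a smaller change in RPKM (1.09 ± 0.0640 in R320* and 2.94 ± 0.209 in WT, SD, n = 3 each).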

How the data were processed

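RNA-seq libraries of K562 cells, 3 with RUNX1 R320* and 3 WT, were compared. TRIzol extraction and an NEBNext Ultra II library kit are named per the labels' protocols. The submitters' processing notes name Salmon, DESeq2, featureCounts, HISAT2 and hg38 without roles. In the table of normalized counts (a signal, deposited as read counts over a single factor for each library) all values (100.0%) were whole multiples of 1 read within 1e-06. The authors' second deposited table held RPKM values that sum to 721735 to 786389 per library. The gene length used is not given in the sources used here. Every gene interval listed beside the RPKM values is 4000 bases long, so the intervals do not give that length.

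Members were matched by symbol and Entrez number. Limma 3.58.1 (R 4.3.3, intensity trend) was fitted to log2(normalized count + 1) of 14299 genes and to log2(RPKM + 0.1) of 17769 genes, with Benjamini-Hochberg adjustment over all of them. Steps were tested on simulated data. EdgeR 4.0.16 and DESeq2 1.42.0, on the recovered reads, other pseudocounts, filters, scalings, a replicate block and left-out libraries were alternatives. Replicates differed beyond counting error (chi-square per gene 5.22 to 8.66), and each library was counted as its own replicate. That variation may be technical, and it does not show that the libraries are independent cultures or clones. Read totals of a genotype, and the LYZ ratio and interval, are sums over its 3 libraries. An exact permutation test of 3 against 3 libraries cannot go below p = 0.10 and was not used. Overlaps, positions and neighbours came from GENCODE and RefSeq (GRCh38.p14), as did sequences, read with Python 3.11.15 and pandas 2.3.3, and figures were drawn with matplotlib 3.10.9.

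All members are named, with up to 5 genes of each of 10 lists by smallest adjusted p, up to 3 protein-coding neighbours on each side and the 5 genes most like SRGN. Other list genes were named with their values known, which is said beside only some of them. SERPING1, CTSC, PF4, CCL5, CEBPE, TBX21 and EOMES are among those without such a remark. Members and lists were chosen with earlier results of these data known.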

Additional observations from a re-analysis of the deposited data

How the results depend on the processing

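SRGN and PRF1 kept their direction and call in every alternative run, 17 in the counts and 13 in RPKM. The log2 fold change of SRGN ranged from -7.50 to -6.36 in the counts and from -7.39 to -4.82 in RPKM, and that of PRF1 from -3.40 to -2.91 and from -3.19 to -1.75. LYZ was called in all 16 count alternatives that tested it (-7.11 to -3.31) and in none of 13 in RPKM (adjusted p from 0.0551 to 0.168). Apart from SRGN, 3 members were called in the counts and 2 in RPKM. With a minimum of 50 normalized counts only 1, PRF1, was tested and called, since LYZ and EPX were then left out. With 1 library left out, 2 to 3 of them were called in the counts and 1 to 2 in RPKM. EPX lost its call with no filter, with quantile normalization, with DESeq2 and without 5 of the 6 libraries. PRG2, never called, reversed its sign without WT replicate 1, to -0.0552 in the counts and -0.41 in RPKM, and with 1 library left out reached at most 0.38 and 0.69.

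Over all genes, edgeR called 7660, DESeq2 7470 and limma 7685 in the counts. The counts with 1 library left out were 6931 to 7314, and 4497 to 5070 against 5675 in RPKM. Same-numbered libraries did not deviate together (correlations 0.03, -0.0031 and -0.0033), so the numbers do not pair the samples. With the replicate block 7854 genes were called in the counts and 4865 in RPKM, SRGN was at -7.17 and -6.81, and 3 and 2 of the other members were called, as without it. TMM, upper quartile and quantile scaling, added for the lists after the data were seen, changed no list's median sign and no list's count in a direction by more than 1. Under these scalings and with each library left out in turn, 12 of the 16 transport genes that fell and all 3 that rose were called every time, as were 7 and 4 of the glycosaminoglycan genes that fell and rose and 8 of the 9 proteoglycans that rose. In the counts the floor for low members is 3 reads, or 2.86 to 3.14 normalized counts, for counting error only. AZU1 and PRTN3, without a read there, had values in RPKM.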
